A study of Rattus norvegicus with 12 samples.

Results

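RNA abundance of 9 known targets of the transcription factor NRF2 was examined in rat PAC1 cells, a smooth muscle line derived from the pulmonary artery, after siRNA depletion of the RNA-binding proteins RBPMS, RBFOX2 or QKI. The members were Nqo1, Hmox1, Gclm, Gclc, Txnrd1, Srxn1, Slc7a11, Gsr and Me1, taken by gene symbol from a count table of 33294 genes. All 9 were found, and all 9 were among the 18438 genes with enough counts to test. The set was chosen by a measured value: Nqo1 had been seen to rise over control in all 3 knockdowns, and the other 8 genes were listed with it as known NRF2 targets to ask whether that rise was shared. The values of Nqo1 against control are therefore given as a description, without a test.

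The data were 12 poly(A)-selected RNA-seq libraries of the PAC-1 line, 3 for each of 4 groups: control siRNA C2, RBPMS knockdown (RBPMS-KD), RBFOX2 knockdown (labelled FOX2-KD) and QKI knockdown (QKI-KD). Per the labels, every group received 90 pmol of siRNA by reverse transfection, a second dose after 24 h, and was collected 48 h after that, so the controls shared the transfection itself. The study's methods describe longer intervals, and the difference was not resolved. The study describes its knockdowns of these 3 proteins as made in PAC1 cells cultured to be differentiated. It reports that the control cells of that experiment were less differentiated than those of its other experiment. The control is a scrambled siRNA, the study's oligonucleotide list gives 1 siRNA per target, and all groups are 1 cell line. The study speaks of biological replicates, but the labels do not say what separated the libraries of a group, and p-values measure only the spread between these libraries. The siRNA sense strands are shown because they define the groups that every comparison below rests on.
C2: aagguccggcucccccaaaug
RBPMS: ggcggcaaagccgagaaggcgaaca
RBFOX2: gcaaugguucagccuuuua
QK: ggacuuacagcuaaacaac

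NRF2, encoded by Nfe2l2, is held low in unstressed cells by KEAP1, an adaptor that presents it to a CUL3 ubiquitin ligase. When reactive electrophiles or oxidants modify KEAP1, NRF2 escapes degradation, pairs with a small MAF protein and binds antioxidant response elements, DNA sites that BACH1 otherwise occupies as a repressor. Its targets make and recycle glutathione, reduce thioredoxin, supply NADPH, break down haem and detoxify quinones, which is why they are read together as the transcriptional signature of oxidative or electrophilic stress, in vascular smooth muscle as in other cells.

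Libraries held 110.6 to 151.7 M counts, and the member with the fewest had 5026 counts in its lowest library. These totals exceed the depth to which the study says its reads were subsampled, and whether each read of a pair was counted is not stated, so a count need not be 1 sequenced fragment. Replicates of a group differed by more than counting noise. Each siRNA lowered its own target, with log2 fold changes of −2.50 for Rbpms, −2.05 for Rbfox2 and −3.13 for Qk. The targets also moved in the other knockdowns. Rbpms had a log2 fold change of −0.81 after RBFOX2 knockdown and −0.49 after QKI knockdown. Qk had −0.42 after RBFOX2 knockdown and 0.18 after RBPMS knockdown. Rbfox2 had −0.12 after RBPMS knockdown and −0.15 after QKI knockdown, calls that were each lost in some alternative. Whether these shifts bear on the results below was not tested. The summed level of 8 smooth muscle markers, in counts per 1 M counts (CPM), was 2110 to 2175 in control libraries, 1069 to 1176 in the RBPMS knockdown, 827 to 925 in the RBFOX2 knockdown and 1441 to 1526 in the QKI knockdown. The sum was carried by Acta2 and Tagln, with means of 990 and 687 CPM in control. At an edgeR adjusted p under 0.05, 6 of the 8 fell after RBPMS knockdown and 5 after each of the others, while 2 rose in each. Among those that rose were Myh11 by 1.05 after RBFOX2 knockdown and Myocd by 0.78 after QKI knockdown. Of all genes tested, 29.0%, 30.1% and 34.0% fell after RBPMS, RBFOX2 and QKI knockdown, and 30.4%, 30.1% and 32.9% rose. The 25% of markers that rose in each was thus no larger a share than that of all genes. Summed endothelial markers ranged from 5.18 to 10.8 CPM, leukocyte markers from 1.44 to 5.98 and epithelial markers from 0.188 to 7.38, and the last 2 were highest in the QKI knockdown. The part that these markers play in the results below was not tested, and in bulk RNA fewer cells of a type cannot be told apart from less RNA per cell.

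Stretches that hold the core of an antioxidant response element, in capitals, are shown for the 3 members with one in the window from 250 bases before to 50 bases after the transcription start. Sequences are from RefSeq on assembly GRCr8, 5′ to 3′ in the direction of the gene. They were read from the start sites on chr2 plus strand (Gclm, chr2:213031953-213031981), chr7 minus strand (Txnrd1, chr7:22755964-22755992) and chr8 minus strand (Me1, chr8:96540393-96540421).
Gclm: tgcggtttctGCTTAGTCAttgtcttcca
Txnrd1: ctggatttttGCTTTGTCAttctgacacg
Me1: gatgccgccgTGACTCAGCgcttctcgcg
The core was searched on both strands as TGACNNNGC, where N is any base. The match began 172, 78 and 167 bases upstream in Gclm, Txnrd1 and Me1, on the opposite strand in the first 2 and on the gene's own strand in Me1. In Me1 the match also overlaps TGACTCA, the letters of an AP-1 motif. Entries were found for 7 of the 9 members, with 8 start sites because Txnrd1 has 2, while Hmox1 and Gsr had none. The core was in 3 of these 8 windows and in 12.1% of 33469 rat promoters of the same length. The core of the xenobiotic response element, TNGCGTG, was in 0 of the 8 windows and in 4.89% of all promoters. Such a match, or its absence, describes the letters in the window only, and sites outside the window were not searched. The 3 genes with a match did not move alike, as described below: Txnrd1 was higher in each knockdown, Me1 was lower in each, and Gclm stayed within 0.13 of control on the log2 scale.

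Across the 9 members, the 3 knockdowns gave mixed patterns rather than 1 direction. Nqo1, Hmox1 and Txnrd1 were higher than control in every knockdown library. Me1 was lower than control in every knockdown library. The remaining 5 members moved up, down or little depending on the protein depleted, and Srxn1 moved in opposite directions, up after RBPMS and QKI knockdown and down after RBFOX2 knockdown. Levels below are CPM scaled by TMM factors, and differences are log2 fold changes from edgeR's quasi-likelihood fit of all 12 libraries. Their standard errors (SE) were derived from that test, as the absolute log2 fold change divided by the square root of its F statistic. Adjusted p-values (Benjamini-Hochberg) were taken over all 18438 genes. The 3 comparisons with control share the same 3 control libraries and are not independent of each other.

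**Figure D1:**
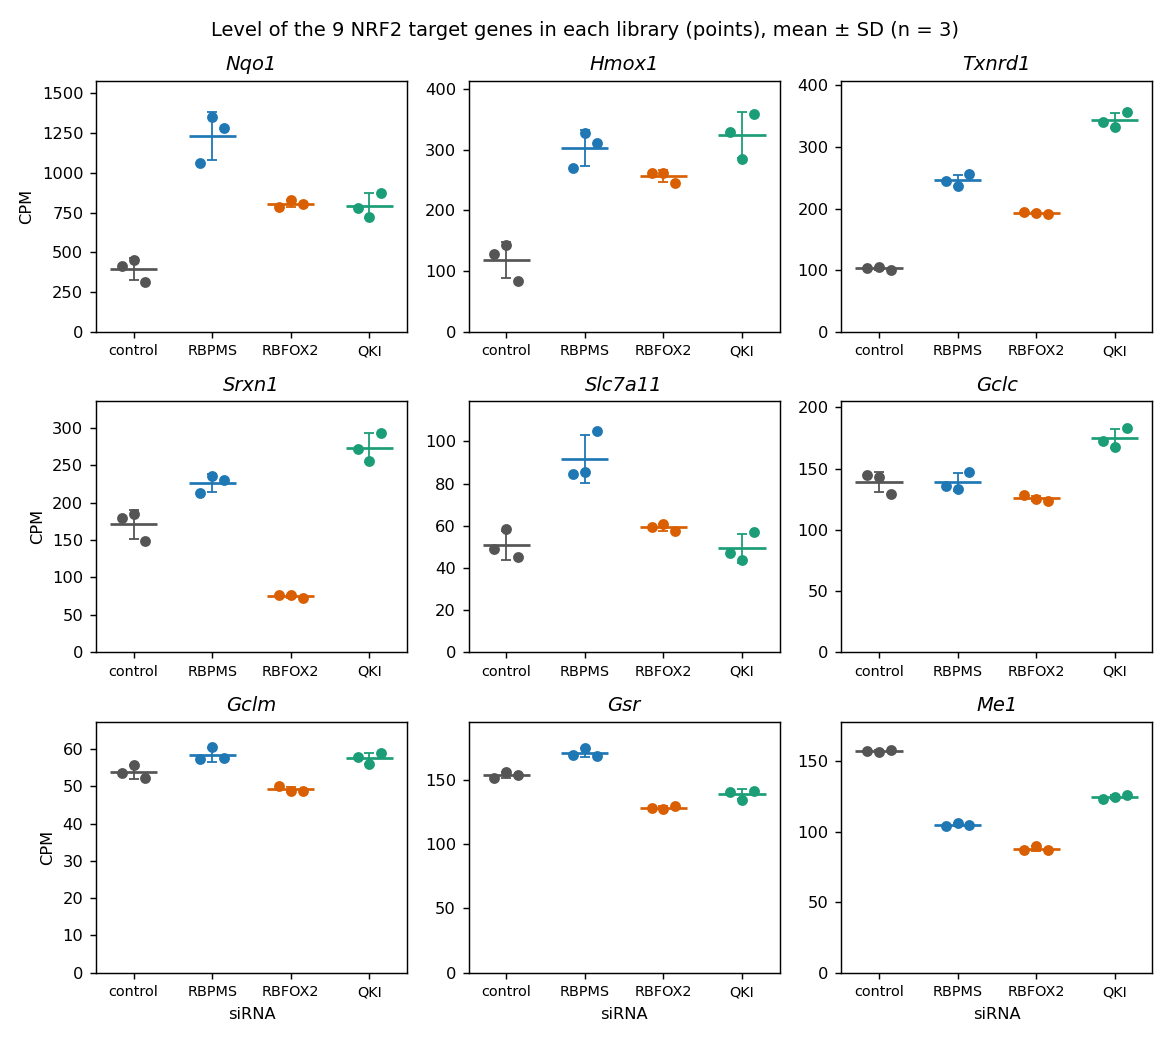
Level of each of the 9 genes (y axis, CPM from 0) by siRNA group (x axis). Points are libraries, horizontal lines are means and error bars are SD (n = 3). Nqo1, Hmox1 and Txnrd1 lie above the control libraries in every knockdown, Me1 lies below them in every knockdown, and Srxn1 lies between 72.1 and 76.1 CPM after RBFOX2 knockdown against 149 to 184 CPM in control.

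Nqo1 encodes NAD(P)H:quinone oxidoreductase, which reduces quinones by 2 electrons and is a widely used readout of NRF2. Its level was 414, 449 and 316 CPM in control 1, 2 and 3, and 1062, 1350 and 1280 CPM in the RBPMS knockdown. It was 784, 830 and 802 CPM in the RBFOX2 knockdown and 782, 722 and 875 CPM in the QKI knockdown. No knockdown library overlapped with control, and the RBPMS libraries lay above all others. The log2 fold changes of Nqo1, which are those that chose the set, were 1.65 (SE 0.11), 1.04 (SE 0.10) and 1.01 (SE 0.10), or 3.13-, 2.05- and 2.02-fold. With 1 library left out at a time, these log2 fold changes were 1.51 to 1.75, 0.90 to 1.14 and 0.87 to 1.12. Among the 10707 genes that averaged 5 CPM or more, 63 had a larger log2 fold change than Nqo1 in the RBPMS knockdown, 271 in the RBFOX2 knockdown and 315 in the QKI knockdown.

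Hmox1 encodes haem oxygenase 1, which breaks haem down to biliverdin, carbon monoxide and iron, and which is under strong repression by BACH1. It was at 128, 142 and 84.0 CPM in control, 269, 327 and 310 CPM after RBPMS knockdown, 261, 262 and 246 CPM after RBFOX2 knockdown, and 328, 284 and 359 CPM after QKI knockdown. The 9 knockdown libraries were all above the highest control, while control 3 was the lowest library of the 12 for both Hmox1 and Nqo1. Hmox1 rose by 1.35 (SE 0.13), 1.12 (SE 0.13) and 1.45 (SE 0.13) on the log2 scale, with adjusted p of 1.34e-07, 1.27e-06 and 3.53e-08 from edgeR. Without control 3 the changes were 1.16, 0.92 and 1.26. Its constitutive paralogue Hmox2 had log2 fold changes of 0.41, 0.14 and −0.12.

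Txnrd1, the cytosolic thioredoxin reductase that passes electrons from NADPH to thioredoxin, had closer replicates than Nqo1 and Hmox1. It was at 104, 105 and 100.3 CPM in control and at 194, 194 and 192 CPM after RBFOX2 knockdown. It was at 245, 237 and 256 CPM after RBPMS knockdown and at 340, 333 and 357 CPM after QKI knockdown. The 4 groups did not overlap, in the order control, RBFOX2, RBPMS and QKI. The log2 fold changes against control were 1.26 (SE 0.037) for RBPMS, 0.91 (SE 0.037) for RBFOX2 and 1.74 (SE 0.037) for QKI, with adjusted p of 3.73e-14, 1.14e-12 and 1.73e-16 from edgeR. Of genes with at least 5 CPM, 58 rose more than Txnrd1 in the QKI knockdown. The mitochondrial reductase Txnrd2 had log2 fold changes of −0.09, −0.26 and 0.00, and Txnrd3 fell in each knockdown, by 0.46, 0.23 and 0.48.

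Srxn1 encodes sulfiredoxin, which restores peroxiredoxins that peroxide has over-oxidised. It was at 179, 184 and 149 CPM in control, 213, 236 and 230 CPM after RBPMS knockdown and 271, 256 and 294 CPM after QKI knockdown. After RBFOX2 knockdown it was at 76.1, 76.0 and 72.1 CPM. The RBPMS and QKI libraries were all above control and the RBFOX2 libraries were all below it. The log2 fold changes were 0.41 (SE 0.067) for RBPMS, −1.19 (SE 0.068) for RBFOX2 and 0.68 (SE 0.067) for QKI, with adjusted p of 4.89e-05, 9.98e-11 and 8.15e-08 from edgeR. Of the 10707 genes with at least 5 CPM, 1.91% had a lower log2 fold change than Srxn1 in the RBFOX2 knockdown.

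The glutathione genes among the members showed smaller changes, apart from Slc7a11 in 1 knockdown. Slc7a11 encodes the transport subunit of the cystine/glutamate exchanger, which brings in cystine for glutathione synthesis. It was at 48.8, 58.3 and 45.1 CPM in control, 84.6, 85.5 and 105 CPM after RBPMS knockdown, 59.5, 60.7 and 57.6 CPM after RBFOX2 knockdown, and 47.2, 43.7 and 56.9 CPM after QKI knockdown. The RBPMS libraries alone lay apart from control, with a rise of 0.85 (SE 0.099, adjusted p = 9.01e-07 from edgeR). The changes of 0.22 (SE 0.098) after RBFOX2 knockdown and −0.04 (SE 0.099) after QKI knockdown did not pass the test, with edgeR adjusted p of 0.058 and 0.724. The RBFOX2 value passed it without control 2 (0.34), with library totals as the only scaling (0.28), with either other filter on low counts, and with the 6 libraries of the comparison alone. Slc3a2, the chaperone subunit of the same exchanger, went from 258 ± 32.5 CPM to 567 ± 42.7 CPM (SD, n = 3) after RBPMS knockdown, a log2 fold change of 1.14, against 0.17 after RBFOX2 knockdown and 0.39 after QKI knockdown.

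Gclc and Gclm encode the catalytic and modifier subunits of glutamate-cysteine ligase, the rate-limiting enzyme of glutathione synthesis, and Gsr encodes the reductase that regenerates it. Gclc ranged from 130 to 144 CPM in control, 134 to 148 CPM after RBPMS knockdown, 124 to 128 CPM after RBFOX2 knockdown and 168 to 183 CPM after QKI knockdown. It overlapped with control after RBPMS knockdown (0.00, SE 0.047, edgeR adjusted p = 0.978), rose by 0.33 after QKI knockdown and had a log2 fold change of −0.15 after RBFOX2 knockdown. The last passed the test, with an edgeR adjusted p of 0.0129 that became 0.0635 without control 1, 0.0564 without control 2 and 0.115 with library totals only (−0.09). On the normalised table the value was −0.09 with a limma adjusted p of 0.268. Gclm ranged from 52.2 to 55.8 CPM in control and from 48.8 to 60.6 CPM over all knockdowns, with log2 fold changes of 0.12, −0.13 and 0.10 (SE 0.038 each) for RBPMS, RBFOX2 and QKI. Its edgeR adjusted p was 0.0113, 0.0073 and 0.0322. Each of these 3 calls was lost in some alternatives, with adjusted p in brackets from edgeR unless limma is named. The RBPMS call was lost with library totals only (0.097), with no filter on low counts (0.0596) and without control 3 (0.0645). It was also lost on the normalised table (0.118 from limma). The RBFOX2 call was lost with library totals only (0.101) and on the normalised table (0.0609 from limma). The QKI call was lost with no filter on low counts (0.138). It was also lost without control 1 (0.0897), control 3 (0.149), QKI-KD 1 (0.0837) or QKI-KD 3 (0.117).

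Gsr was at 151 to 156 CPM in control, 168 to 175 CPM after RBPMS knockdown, 127 to 130 CPM after RBFOX2 knockdown and 134 to 141 CPM after QKI knockdown, with no overlap with control in any of them. It rose by 0.15 (SE 0.032) after RBPMS knockdown and fell by 0.26 (SE 0.032) after RBFOX2 knockdown and by 0.15 (SE 0.032) after QKI knockdown. The QKI change became −0.06, with an adjusted p of 0.104 from edgeR, when library totals were the only scaling.

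Me1, the cytosolic malic enzyme that makes NADPH while turning malate into pyruvate, fell in each knockdown. It was at 157, 157 and 158 CPM in control, 104, 106 and 105 CPM after RBPMS knockdown, 86.7, 89.9 and 87.2 CPM after RBFOX2 knockdown, and 123, 124 and 126 CPM after QKI knockdown. The 4 groups did not overlap. The falls were 0.58, 0.84 and 0.34 on the log2 scale (SE 0.030 each), with adjusted p of 3.44e-11, 2.33e-13 and 1.98e-08 from edgeR, so that the level after RBFOX2 knockdown was 0.559 of control. Of the mitochondrial malic enzymes, Me2 had log2 fold changes of 0.47, 0.71 and 0.11 and Me3 was below 1 CPM in every group (means of 0.0894 to 0.635 CPM).

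**Figure D2:**
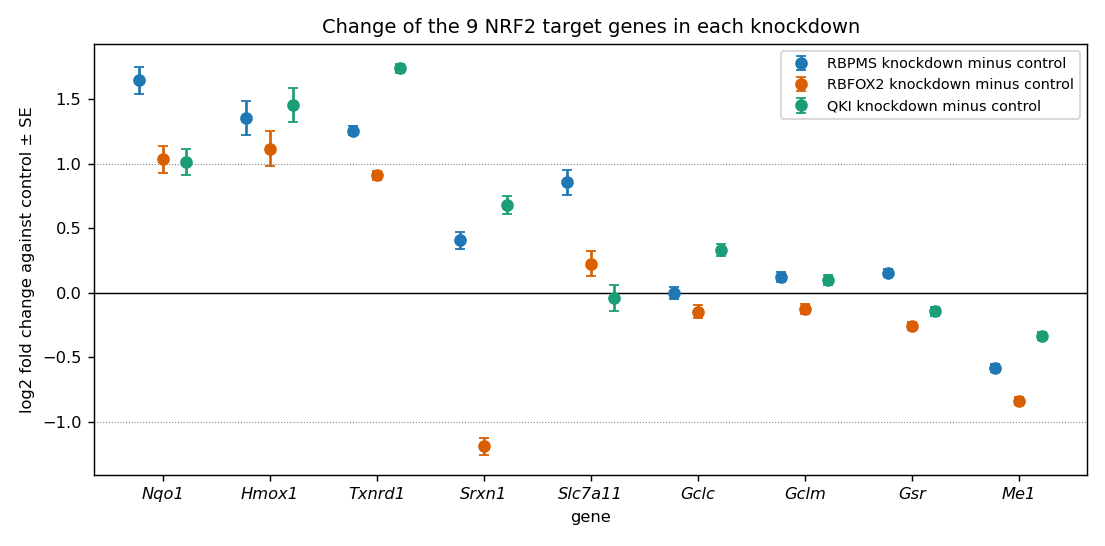
Log2 fold change against control (y axis) of each of the 9 genes (x axis) in the RBPMS, RBFOX2 and QKI knockdowns, with SE bars from the edgeR fit. The dotted lines mark a log2 fold change of 1 in either direction. Nqo1 is shown as a description because its rise chose the set, Hmox1 is above 1 in each knockdown, and Srxn1 runs from −1.19 to 0.68.

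Counted over the 8 members other than Nqo1 at an edgeR adjusted p under 0.05, 6 rose and 1 fell after RBPMS knockdown, 2 rose and 5 fell after RBFOX2 knockdown, and 5 rose and 2 fell after QKI knockdown. At the same threshold, 30.4% of all genes tested rose and 29.0% fell after RBPMS knockdown, 30.1% rose and 30.1% fell after RBFOX2 knockdown, and 32.9% rose and 34.0% fell after QKI knockdown. With an absolute log2 fold change above 1 as well, 2 of the 8 rose after RBPMS knockdown (Hmox1 and Txnrd1), 1 rose and 1 fell after RBFOX2 knockdown (Hmox1 and Srxn1), and 2 rose after QKI knockdown (Hmox1 and Txnrd1). The share of all genes past both thresholds was 5.16% higher and 4.50% lower after RBPMS knockdown, 6.96% higher and 4.73% lower after RBFOX2 knockdown, and 8.28% higher and 9.24% lower after QKI knockdown. The median log2 fold change over all 9 members was 0.41, −0.13 and 0.33, beside 0.01, 0.01 and 0.01 over all genes tested. Since the list was put together with the rise of Nqo1 known, these counts and medians describe the list only.

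The knockdowns were also compared with each other directly, by differences that take no level from the control libraries and that did not choose the set. Their SE and adjusted p still rest on the fit of all 12 libraries, with the control libraries among them. For all genes, the share that differed was taken in either direction only, so a count of members in 1 direction has no matching share. The median difference over all genes was −0.01 for RBPMS minus RBFOX2, 0.01 for RBPMS minus QKI and 0.01 for RBFOX2 minus QKI. Levels after RBPMS knockdown were higher than after RBFOX2 knockdown for 8 of the 9 members at an edgeR adjusted p under 0.05, a contrast in which 56.7% of all genes differed in either direction. Hmox1 was the exception, with a difference of 0.24 (SE 0.13, edgeR adjusted p = 0.136) and no overlap between the 2 groups of libraries. It passed the test with no filter on low counts and with the 6 libraries alone. The largest difference was that of Srxn1, 1.60 (SE 0.069, adjusted p = 5.42e-12 from edgeR), followed by Slc7a11 at 0.63 (SE 0.098) and Nqo1 at 0.61 (SE 0.10). The difference of Gclc, 0.15 (SE 0.047), shrank to 0.05 and lost its call with library totals only (edgeR adjusted p = 0.441) and on the normalised table (limma adjusted p = 0.554). It also lost its call with the filter at 200 counts (0.11, edgeR adjusted p = 0.0535) and without RBFOX2-KD 3 (0.14, adjusted p = 0.0520) or RBPMS-KD 3 (0.10, adjusted p = 0.0902).

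Between the RBPMS and QKI knockdowns, 3 members were higher after RBPMS knockdown, 4 were lower and 2 did not pass the test, where 61.0% of all genes differed in either direction. Slc7a11 (0.90, SE 0.099), Nqo1 (0.63, SE 0.10) and Gsr (0.30, SE 0.032) were higher after RBPMS knockdown. Txnrd1 (−0.48, SE 0.036), Gclc (−0.33, SE 0.047), Srxn1 (−0.27, SE 0.066) and Me1 (−0.25, SE 0.030) were lower. Hmox1 (−0.10, SE 0.13, edgeR adjusted p = 0.524) and Gclm (0.02, SE 0.038, adjusted p = 0.611) overlapped between the groups. The Gclm difference changed sign, to −0.11 with an adjusted p of 0.0208 from edgeR, when library totals were the only scaling.

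Between the RBFOX2 and QKI knockdowns, 7 of the 9 members were lower after RBFOX2 knockdown and 1 was higher, where 68.5% of all genes differed in either direction. Srxn1 differed most, by −1.87 (SE 0.069, adjusted p = 1.76e-13 from edgeR), then Txnrd1 by −0.83 (SE 0.036), Me1 by −0.50 (SE 0.030) and Gclc by −0.48 (SE 0.047). Nqo1 was the 1 member whose libraries overlapped, with a difference of 0.02 (SE 0.10, edgeR adjusted p = 0.861). Hmox1, at −0.34 (SE 0.13), and Slc7a11, at 0.27 (SE 0.099), passed the test by a small margin, with edgeR adjusted p of 0.0303 and 0.0236. The Hmox1 call was lost with DESeq2 (0.0659), on the normalised table (0.1155 from limma) and without RBFOX2-KD 1 (0.0532), RBFOX2-KD 3 (0.0838), QKI-KD 1 (0.0617) or QKI-KD 3 (0.119). The Slc7a11 call was lost with DESeq2 (0.0901), on the normalised table (0.0897 from limma) and without RBFOX2-KD 1 (0.0609), RBFOX2-KD 2 (0.0778), QKI-KD 1 (0.0923) or QKI-KD 2 (0.148). Each value in brackets is an adjusted p.

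**Figure D3:**
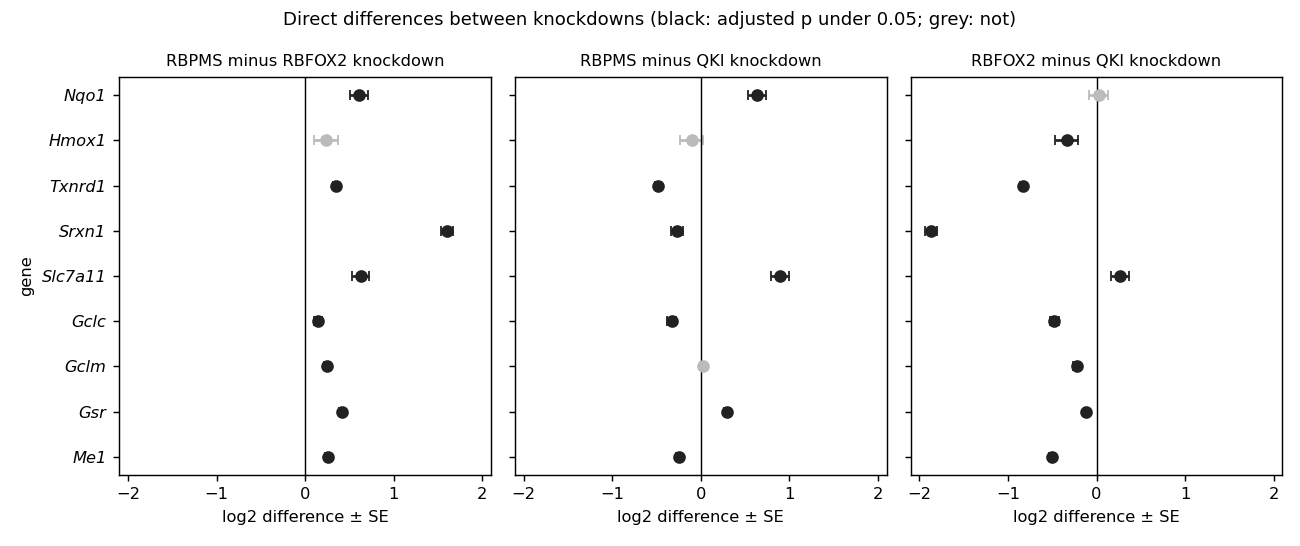
Direct difference between knockdowns for the 9 genes (y axis), as log2 difference with SE bars (x axis), in 3 panels. Black points have an edgeR adjusted p under 0.05 and grey points do not. All 9 points of the first panel are above 0, from 0.15 for Gclc to 1.60 for Srxn1, and Srxn1 is the farthest from 0 in the third panel.

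The order of levels therefore differed from member to member. For Nqo1 the groups ran control, then QKI and RBFOX2 without a difference that passed the test, then RBPMS. For Hmox1 they ran control, RBFOX2, RBPMS and QKI, of which the neighbours RBFOX2 and RBPMS, and RBPMS and QKI, did not pass the test. For Srxn1 they ran RBFOX2, control, RBPMS and QKI, for Me1 RBFOX2, RBPMS, QKI and control, and for Gsr RBFOX2, QKI, control and RBPMS, with each neighbouring pair past the test in the main fit. Gsr and Me1, which both serve the NADPH and glutathione cycle, thus had control at different places in their order.

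The genes nearest to each member in pattern were found by the root mean square (RMS) difference of log2 CPM over the 12 libraries, each gene centred on its own mean, among genes averaging 5 CPM or more. The likeness is a description, and the libraries share their depth and their groups. Nearest to Nqo1 were Tiparp (RMS 0.121), MGC95208 (0.166) and Yae1 (0.179), where the RMS of Nqo1 around its own mean was 0.612. Nearest to Hmox1 were Stambpl1 (0.163), Gtf2h1 (0.168) and Sgca (0.171), and nearest to Txnrd1 were Ube2e3 (0.101), Lrrc28 (0.121) and Acot2 (0.132). Among the members themselves, Hmox1 was nearest to Nqo1 with an RMS difference of 0.270, at place 65 of 10706 genes, and to Txnrd1 with 0.253. Srxn1 was at place 9446 and Me1 at place 9379 in the same order from Nqo1.

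Srxn1 was nearest in pattern to Nabp1 (0.0886), Med19 (0.106) and Slc30a4 (0.123), and Slc7a11 to Arl8b (0.110), Nars1 (0.114) and LOC120096183 (0.138). Nars1 is a cytosolic aminoacyl-tRNA synthetase. Gclm was nearest to Eef2 (0.0343), Bub3 (0.0353) and Dlst (0.0388), and Gclc to Gpr176 (0.0450), Rnf185 (0.0477) and Gmps (0.0569). Gsr was nearest to Taf5 (0.0373), Slc25a5 (0.0387) and Rnf19b (0.0421), and Me1 to Serinc1 (0.0461), Usp28 (0.0484) and Fam160b2 (0.0589). None of these 27 places was taken by another of the 9 members.

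The genes that control NRF2 were examined next, as a list of 12, all tested. After RBPMS knockdown 8 of the 12 rose and 4 did not pass the test, after RBFOX2 knockdown 5 rose and 4 fell, and after QKI knockdown 6 rose and 5 fell, with medians of 0.28, −0.01 and 0.20 on the log2 scale. This is 66.7% higher after RBPMS knockdown, 41.7% higher and 33.3% lower after RBFOX2 knockdown, and 50% higher and 41.7% lower after QKI knockdown. The shares of all genes called were 30.4% higher and 29.0% lower for RBPMS, 30.1% and 30.1% for RBFOX2, and 32.9% and 34.0% for QKI, to which the RBFOX2 shares lay close. Nfe2l2, which encodes NRF2 itself, was at 199, 199 and 186 CPM in control, 231, 252 and 234 CPM after RBPMS knockdown, 192, 196 and 193 CPM after RBFOX2 knockdown and 175, 176 and 176 CPM after QKI knockdown. Its mRNA rose by 0.29 (SE 0.037) after RBPMS knockdown, overlapped with control after RBFOX2 knockdown (−0.01, SE 0.037, edgeR adjusted p = 0.853), and fell by 0.15 (SE 0.037) after QKI knockdown. The QKI call was lost with library totals only (−0.07, edgeR adjusted p = 0.129) and on the normalised table (−0.10, adjusted p = 0.0517 from limma). NRF2 is regulated mainly as a protein, which these data do not measure.

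Keap1 was at 75.5, 78.2 and 75.4 CPM in control and at 45.4, 44.0 and 44.7 CPM after QKI knockdown, a fall of 0.77 (SE 0.036, adjusted p = 4.08e-12 from edgeR). After RBFOX2 knockdown it was at 84.0, 83.2 and 84.6 CPM, a rise of 0.14 (SE 0.036), and after RBPMS knockdown it overlapped with control (−0.03, SE 0.036). Of the other parts of its ligase, Cul3 fell by 0.32 after QKI knockdown, with 0.02 and −0.01 after RBPMS and RBFOX2 knockdown, and Rbx1 had log2 fold changes of 0.06, −0.32 and 0.18. Sqstm1 encodes p62, which sequesters KEAP1 and is also an NRF2 target, and rose from 718 ± 62.5 CPM to 1202 ± 104 CPM after RBPMS knockdown and 1183 ± 82.7 CPM after QKI knockdown (SD, n = 3 each). After RBFOX2 knockdown Sqstm1 was at 588 ± 11.8 CPM, a log2 fold change of −0.29 that on the normalised table became −0.14 and lost its call. Dpp3, another protein that binds KEAP1, rose in each knockdown, by 0.47, 0.45 and 0.34.

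Among the partners and competitors of NRF2, the small MAF genes Maff (0.76, −0.05 and 0.70 for RBPMS, RBFOX2 and QKI) and Mafg (0.37, −0.23 and 0.38) rose after RBPMS and QKI knockdown. Mafk rose by 0.26 and 0.42 in the same 2 knockdowns, and its value after RBFOX2 knockdown was 0.11, a call lost without control 3 (0.08) or RBFOX2-KD 2 (0.10). The repressor Bach1 rose by 0.31 after RBPMS knockdown and fell by 0.62 after RBFOX2 knockdown. Its value after QKI knockdown was −0.13, which lost its call in 6 alternatives, with library totals only (−0.05, edgeR adjusted p = 0.416), the filter at 200 counts (−0.10), the normalised table (−0.09) and without control 1 (−0.13), control 2 (−0.12) or QKI-KD 2 (−0.09). Bach2, at 2.72 to 3.56 CPM, had values of −0.11, 0.28 and 0.21, of which the RBFOX2 value passed the test but not without control 2 (0.21), RBFOX2-KD 1 (0.26) or RBFOX2-KD 3 (0.26), and the QKI value passed it without QKI-KD 3 (0.29). The related factor Nfe2l1 rose by 0.17 after RBFOX2 knockdown and fell by 0.19 after QKI knockdown, and its value of 0.08 after RBPMS knockdown (edgeR adjusted p = 0.034) lost its call in most alternatives, with adjusted p of up to 0.968.

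A wider list of 35 other genes known as NRF2 targets was counted in the same way, of which 33 were tested. After RBPMS knockdown 21 rose and 5 fell with a median of 0.32, after RBFOX2 knockdown 10 rose and 16 fell with a median of −0.12, and after QKI knockdown 22 rose and 8 fell with a median of 0.25. This is 63.6% higher and 15.2% lower for RBPMS, 30.3% and 48.5% for RBFOX2, and 66.7% and 24.2% for QKI, where all genes gave 30.4% and 29.0%, 30.1% and 30.1%, and 32.9% and 34.0%. The number that fell after RBPMS knockdown was 8 without RBPMS-KD 2. Past an absolute log2 fold change of 1 as well, 5.16% of all genes were up and 4.50% down after RBPMS knockdown. After RBFOX2 knockdown 6.96% were up and 4.73% down, and after QKI knockdown 8.28% were up and 9.24% down. Beside these shares, the counts of the 33 list genes were 2 up and 2 down, 1 up and 3 down, and 3 up and 1 down. These were Ptgr1, Akr1b10, Ephx1, Mgst1 and Sesn2, described below, and Ugt1a6, which was at 0.121 to 0.301 CPM as a group mean and is named because it was the 1 gene up after RBFOX2 knockdown.

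By role, the 7 genes of haem and iron handling all rose after QKI knockdown, where 4 rose and 2 fell after RBPMS knockdown and 1 rose and 3 fell after RBFOX2 knockdown. Of these, the ferritin subunits Fth1 (0.27, 0.06 and 0.70 for RBPMS, RBFOX2 and QKI) and Ftl1 (0.57, −0.12 and 0.93), which store iron, were named after their values were seen. The Ftl1 value after RBFOX2 knockdown passed the test without control 3 (−0.20). The 3 thioredoxin and peroxiredoxin genes of the list, Txn1 (0.28, −0.19 and 0.38), Prdx1 (0.36, 0.03 and 0.21) and Prdx6 (0.33, −0.06 and 0.25), also named after their values were seen, rose after RBPMS and QKI knockdown. After RBFOX2 knockdown Txn1 fell, though not on the normalised table (−0.13, adjusted p = 0.079 from limma), and the other 2 did not pass the test. Of 5 genes that make NADPH, 3 rose and 2 did not pass the test after RBPMS knockdown, 3 rose and 2 fell after RBFOX2 knockdown, and 2 rose and 1 fell after QKI knockdown, and the transketolase gene Tkt, named after its values were seen, rose in each by 0.47, 0.67 and 0.85. Of 7 tested genes of glutathione synthesis, transfer and export, 3 rose and 2 fell, 2 rose and 4 fell, and 2 rose and 5 fell. Of 8 detoxification genes, 6 rose and 1 fell, 3 rose and 4 fell, and 5 rose and 2 fell, in the same order. Of the last 3 genes, 2 rose after RBPMS knockdown, 1 rose and 2 fell after RBFOX2 knockdown, and 3 rose after QKI knockdown. Beside the shares of all genes given above, from 29.0% to 34.0% in each direction, counts such as 2 up of 7, or 2 up and 1 down of 5, are near those of all genes.

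The genes of the wider list with the largest changes did not share 1 direction. Ptgr1, a reductase of reactive lipid aldehydes and prostaglandins, rose from 53.0 ± 6.48 CPM to 144 ± 16.9, 77.4 ± 4.59 and 188 ± 6.32 CPM (SD, n = 3 each) in the RBPMS, RBFOX2 and QKI knockdowns, by 1.44, 0.55 and 1.83. Ephx1, the microsomal epoxide hydrolase, fell from 33.4 ± 4.66 CPM to 5.10 ± 0.293, 10.5 ± 0.828 and 5.46 ± 0.487 CPM, with log2 fold changes of −2.71, −1.66 and −2.61. Mgst1, a membrane glutathione transferase, also fell in each knockdown, by 1.11, 1.59 and 0.81. Sesn2, a stress-induced regulator of nutrient signalling, fell by 1.45 after RBFOX2 knockdown and rose by 0.34 after QKI knockdown, with 0.03 after RBPMS knockdown. The aldo-keto reductase Akr1b10 rose by 1.08 after both RBPMS and QKI knockdown. Its value after RBFOX2 knockdown was −0.34, a call lost without control 2 (−0.20) or RBFOX2-KD 1 (−0.30). Its reads may be shared with the close paralogue Akr1b8, which makes its level uncertain.

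Antioxidant enzymes outside the NRF2 list and metallothioneins, 17 genes in all, showed 8 that rose and 6 that fell after RBPMS knockdown, 4 and 6 after RBFOX2 knockdown, and 6 and 8 after QKI knockdown. These are 47.1% and 35.3%, 23.5% and 35.3%, and 35.3% and 47.1% of the list, beside 30.4% and 29.0%, 30.1% and 30.1%, and 32.9% and 34.0% of all genes. The metal-binding metallothioneins Mt1 (1.37, 1.81 and 1.76 for RBPMS, RBFOX2 and QKI) and Mt2A (1.37, 0.87 and 1.60) rose in each knockdown, from 4.12 ± 0.391 and 3.87 ± 0.626 CPM in control (SD, n = 3), with the caution that near-identical copies may share their reads. The remaining paralogue of a member, Nqo2, had log2 fold changes of 0.27, 0.04 and −0.33, the last of which lost its call on the normalised table (−0.20).

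Slc7a11 and Chac1 also belong to the genes induced by ATF4, the transcription factor of the integrated stress response, and a list of 8 such genes was counted. After RBPMS knockdown 8 of 8 rose with a median of 1.02, after RBFOX2 knockdown 1 rose and 3 fell with a median of −0.03, and after QKI knockdown 6 rose and 1 fell with a median of 0.39. Of all genes 30.4% rose after RBPMS knockdown, 30.1% rose and 30.1% fell after RBFOX2 knockdown, where the list gave 12.5% and 37.5%, and 32.9% rose and 34.0% fell after QKI knockdown. Those past a log2 fold change of 1 after RBPMS knockdown were Trib3 (1.60), Ddit3 (1.37), Atf3 (1.35) and Chac1 (1.16). Chac1, an enzyme that degrades glutathione, also rose by 1.05 after QKI knockdown. Slc7a11 itself had log2 fold changes of 0.85, 0.22 and −0.04 in the same order, of which the first passed the test. Whether ATF4 has a part in the changes of Slc7a11 was not tested.

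Nqo1 is also a textbook target of the aryl hydrocarbon receptor (AhR), a ligand-activated factor that induces cytochrome P450 genes, so a list of 8 genes of that receptor was counted, 7 of them tested. It was drawn up with the rises of Aldh3a1 and Cyp1a1 known, and its counts are a description. After RBPMS knockdown 5 rose and 2 did not pass the test, after RBFOX2 knockdown 5 rose and 2 fell, and after QKI knockdown 5 rose and 2 fell, with medians of 1.21, 0.78 and 0.68. The list thus had 71.4% higher in each knockdown, beside 30.4%, 30.1% and 32.9% of all genes, and 28.6% lower after RBFOX2 and QKI knockdown, beside 30.1% and 34.0%. Tiparp, a target that feeds back on the receptor, was at 53.4, 55.6 and 44.7 CPM in control, 130, 147 and 153 CPM after RBPMS knockdown, 101, 108 and 112 CPM after RBFOX2 knockdown, and 110, 107 and 123 CPM after QKI knockdown. Its log2 fold changes of 1.49 (SE 0.077), 1.06 (SE 0.076) and 1.14 (SE 0.076) stand beside 1.65, 1.04 and 1.01 for Nqo1. Tiparp is also the gene nearest to Nqo1 in pattern, as given above. Whether AhR or NRF2 has a part in the rise of Nqo1 was not tested.

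The other AhR targets had changes of different sizes. Aldh3a1, an aldehyde dehydrogenase, rose by 4.07, 4.07 and 2.78, and the repressor Ahrr by 1.21, 0.78 and 0.68. Cyp1a1 rose by 5.44, 2.75 and 7.24 from 0.088 to 0.698 CPM in control, and its changes were 6.56, 3.88 and 8.36 without control 2. Cyp1b1 fell by 2.29 after QKI knockdown and by 0.33 after RBFOX2 knockdown, with −0.02 after RBPMS knockdown. The receptor gene Ahr rose by 0.44 and 0.41 after RBPMS and RBFOX2 knockdown and fell by 0.34 after QKI knockdown, and its partner Arnt had log2 fold changes of 0.07, −0.16 and 0.26, of which the first passed the test without RBPMS-KD 2 (0.12).

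**Figure D4:**
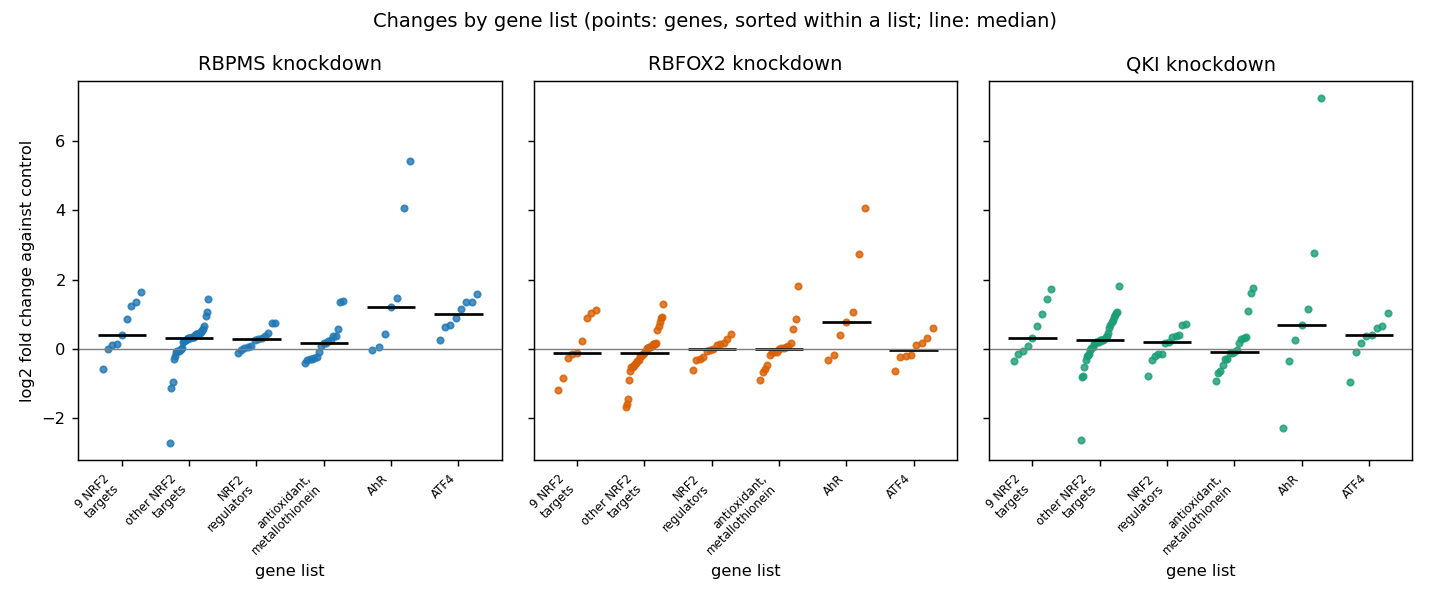
Log2 fold change against control (y axis) of the tested genes of 6 lists (x axis) in each knockdown. Points are genes sorted within their list and black lines are list medians. The medians of the 9 NRF2 targets (0.41, −0.13 and 0.33) lie close to those of the wider NRF2 list (0.32, −0.12 and 0.25), and both lists hold genes on either side of 0 in each knockdown.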

How the data were processed

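Poly(A) RNA from 12 PAC1 libraries was sequenced by the authors. The study used STAR on mRatBN7.2 for alignment and featureCounts on RefSeq genes for counting. The authors deposited raw counts per gene and a normalised signal (noise-filtered with noisyR and quantile-normalised), the latter used here only as an alternative on the log2(value + 1) scale. Strand use and the handling of multiply mapped reads are not given in the sources used here, so genes with near-identical copies are uncertain. Tools in the submitters' notes include STAR 2.5.2a, edgeR 3.28.1 and DESeq2 1.30.0. Of the counts from 1 to 19, 68.1% were even, against 50.9% of large counts, and a fit on halved counts was tried.

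Counts of 18438 genes kept by filterByExpr were fitted with edgeR 4.0.16 (R 4.3.3) by the quasi-likelihood test with TMM factors, group means and no covariates, two-sided, and were tested on simulated data first. With 3 libraries against 3 an exact permutation test cannot go below 0.1, so adjusted p-values rest on the model. Alternatives used limma 3.58.1, DESeq2 1.42.0, other scalings and filters, a replicate block, and each library left out. Replicates of a group differed beyond counting noise (chi-square per degree of freedom 4.64 to 57.8 over 12 pairs), so none was merged.

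The members and the lists were chosen with earlier results of these data known. Named were all members, siRNA targets, and the tested genes of the regulator, paralogue and AhR lists. Of the wider NRF2, antioxidant and ATF4 lists, genes past both thresholds with a mean of at least 5 CPM were named, and for each member the 3 nearest genes. Beyond this rule, Fth1, Ftl1, Txn1, Prdx1, Prdx6, Tkt and Ugt1a6 were named after their values were seen, and Acta2, Tagln, Myh11 and Myocd as markers.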

Additional observations from a re-analysis of the deposited data

How the results depend on the processing

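Calls of the members that were lost or gained under an alternative are given in the report beside their values, and the cause of each change here was not tested. Values near 0 changed sign, and of these only Nfe2l1 after RBPMS knockdown passed the test in the main fit. With library totals only, the log2 differences became −0.027 for Cul3 and −0.017 for Sesn2 after RBPMS knockdown, 0.045 for Nfe2l2, 0.039 for Cul3 and 0.0039 for Maff after RBFOX2 knockdown, 0.044 for Slc7a11 after QKI knockdown, −0.11 for Gclm between RBPMS and QKI knockdown and −0.0093 for Nqo1 between RBFOX2 and QKI knockdown. On the normalised table they became −0.026 for Cul3 and −0.0018 for Nfe2l1 after RBPMS knockdown, 0.042 for Nfe2l2, 0.020 for Cul3, 0.018 for Ftl1 and 0.016 for Prdx6 after RBFOX2 knockdown, 0.0024 for Slc7a11 after QKI knockdown, −0.058 for Gclm between RBPMS and QKI knockdown and −0.032 for Nqo1 between RBFOX2 and QKI knockdown. With a filter at a mean of 200 counts they became 0.013 for Nfe2l2 and 0.0074 for Cul3 after RBFOX2 knockdown and −0.021 for Gclm between RBPMS and QKI knockdown. Txnrd2 after QKI knockdown became −0.0092 with no filter, and Gclc after RBPMS knockdown 0.00081 with the 6 libraries alone.

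Leaving out 1 library at a time gave, after RBPMS knockdown, −0.052 to 0.025 for Gclc, −0.017 to 0.072 for Sesn2 and −0.095 to 0.021 for Cyp1b1. After RBFOX2 knockdown it gave −0.042 to 0.0057 for Nfe2l2, −0.085 to 0.012 for Maff and −0.020 to 0.080 for Nqo2, and after QKI knockdown −0.16 to 0.069 for Slc7a11 and −0.027 to 0.029 for Txnrd2. Between knockdowns it gave −0.0031 to 0.039 for Gclm (RBPMS and QKI) and −0.051 to 0.091 for Nqo1 (RBFOX2 and QKI).

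The median of the members was 0.31 to 0.46 after RBPMS knockdown and −0.15 to −0.10 after RBFOX2 knockdown with 1 library left out. The RBFOX2 median was −0.074 with library totals only, −0.11 with the filter at 200 counts and −0.085 on the normalised table, and the QKI median was 0.41 with library totals only. In the wider list, 5 to 8 genes fell after RBPMS knockdown with 1 library left out and 5 after QKI knockdown with library totals only. With the fold threshold added, 2 rose and 2 fell after RBPMS knockdown, 1 and 3 after RBFOX2 knockdown, and 3 and 1 after QKI knockdown. The shares of all genes past both thresholds are given beside these counts in the report.

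Replicate numbers are shared between groups but did not pair the libraries: deviations of same-numbered libraries correlated at r of −0.344 to 0.246 over 18 pairs, and 3 of 12 libraries correlated best with their own number. With the replicate block the medians were 0.41, −0.13 and 0.33, 21, 10 and 22 genes of the wider list rose, and among the results given here only Nfe2l1 after RBPMS knockdown lost its call (0.08, edgeR adjusted p = 0.0505). Since replicates differed beyond counting noise, the 3 libraries per group, and not depth, set the precision.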
